A study of Homo sapiens with 8 samples.

Results

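The genes of the endoplasmic reticulum (ER) that fold secretory proteins and dispose of those that fail to fold were examined in the Ewing sarcoma line SK-N-MC, which is long established in culture. A list of 36 genes was taken by symbol from the 60332 rows of the expression table, and all 36 passed the filter on low values. They were divided by role into 5 stress sensors and transcription factors, 11 chaperones and cofactors of the HSP70 and HSP90 type, 5 disulfide isomerases, 7 lectin chaperones and glycan sensors, 6 genes of retrotranslocation and degradation, and 2 genes of translocation and export. RNA sequencing had been run on 8 libraries in 4 groups of 2. By the growth protocol in the labels, every group carried dCas9-KRAB, a catalytically dead Cas9 joined to a transcriptional repressor, from a lentiviral vector and had been selected with puromycin as an uncloned pool. By the same protocol control cells had the empty vector, though their sample labels list no genetic change and the study's text calls them parental. They were kept for 16 h in normoxia or in 1% oxygen. If they were parental, the vector cannot be told apart from the knockdown. In eKD1 and eKD2 cells a single guide, different for each, brought the repressor beside the GGAA-repeat enhancer that drives LOXHD1, and their libraries were all from 16 h in 1% oxygen. Since each guide was represented by a single pool, the guide and the pool cannot be told apart, and an effect of oxygen in eKD cells was not analysed here.

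Proteins that enter the ER are folded by the chaperone BiP and its cofactors, linked by disulfide isomerases and monitored by lectins that read their glycans, and those that stay misfolded are passed back to the cytosol for degradation. When misfolded proteins build up, the sensors IRE1, ATF6 and PERK start the unfolded protein response. IRE1 splices XBP1 mRNA and, together with ATF6, raises the chaperones and the degradation genes, whereas PERK acts through translation and the factor ATF4, whose targets include genes of amino acid supply and redox balance. The PERK kinase shares its substrate with other stress kinases, so that ATF4 targets can also rise without ER stress. The question was whether the chaperone and degradation genes moved apart from the ATF4 targets. Gene values do not distinguish spliced from unspliced XBP1, and protein activation of the sensors was not measured.

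The promoters of these genes are shown first because the chaperones are classically defined by a shared element. The ER stress response element (ERSE) was searched as CCAAT, then any 9 bases, then CCACG, and the related ERSE-II as ATTGG, then any single base, then CCACG, on both strands of a window from 250 bases before to 50 bases after each gene start. RefSeq windows on GRCh38.p14 were at hand for 33 of the 36 genes, all but DERL1, PDIA3 and SEC24D. ERSE was found in 7 of the 33 genes, HSPA5, HSP90B1, CALR, XBP1, CRELD2, PDIA6 and CANX, and in 27 of all 35116 windows (0.0769%). ERSE-II was found in HERPUD1, HYOU1 and SDF2L1 and in 19 of all windows (0.0541%). No window of the 33 genes held both motifs, and none of 23 genes from a list of ATF4 and its targets held either. The stretches below, all on GRCh38.p14 and upstream of the gene start, are printed 5′ to 3′ on the strand of the gene, with the motif match in capitals. HSPA5 and HERPUD1 are given over 250 bases because their expression moved in opposite directions in eKD2 cells, and the others are given around the match.
HSPA5, chr9:125241344-125241593, minus strand: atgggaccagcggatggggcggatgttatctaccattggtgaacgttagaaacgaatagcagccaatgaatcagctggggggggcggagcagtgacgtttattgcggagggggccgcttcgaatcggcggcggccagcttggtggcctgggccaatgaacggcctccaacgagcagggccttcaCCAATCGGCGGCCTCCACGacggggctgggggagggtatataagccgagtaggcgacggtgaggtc
HERPUD1, chr16:56931892-56932141, plus strand: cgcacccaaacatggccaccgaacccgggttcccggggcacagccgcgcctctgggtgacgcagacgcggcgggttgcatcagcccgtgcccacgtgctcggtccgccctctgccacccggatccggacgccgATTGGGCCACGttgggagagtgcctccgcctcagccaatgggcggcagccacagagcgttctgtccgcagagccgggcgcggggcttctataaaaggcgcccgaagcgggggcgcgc
HSP90B1, chr12:103930204-103930351, plus strand: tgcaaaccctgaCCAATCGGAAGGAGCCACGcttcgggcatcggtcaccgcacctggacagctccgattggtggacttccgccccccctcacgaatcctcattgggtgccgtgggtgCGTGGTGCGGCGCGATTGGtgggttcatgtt
CALR, chr19:12938372-12938414, plus strand: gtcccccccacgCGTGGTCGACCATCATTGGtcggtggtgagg
XBP1, chr22:28800591-28800633, minus strand: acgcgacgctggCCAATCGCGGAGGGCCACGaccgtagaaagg
CRELD2, chr22:49918542-49918584, plus strand: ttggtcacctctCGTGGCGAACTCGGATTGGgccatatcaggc
PDIA6, chr2:10812841-10812883, minus strand: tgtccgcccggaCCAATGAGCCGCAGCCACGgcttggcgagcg
CANX, chr5:179698766-179698808, plus strand: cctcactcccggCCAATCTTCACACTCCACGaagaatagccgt
HYOU1, chr11:119057262-119057402, minus strand: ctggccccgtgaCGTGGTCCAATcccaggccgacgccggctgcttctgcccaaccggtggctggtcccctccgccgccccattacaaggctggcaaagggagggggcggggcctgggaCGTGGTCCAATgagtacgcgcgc
SDF2L1, chr22:21642102-21642136, plus strand: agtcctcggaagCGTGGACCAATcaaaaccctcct
In CALR and CRELD2, in the second match of HSP90B1, and in HYOU1 and SDF2L1, the capitals read as the reverse complement because the match lies on the other strand. ERSE of HSPA5 ended 48 bases before the gene start and that of XBP1 34 bases before it, while that of CALR began 225 bases before it. A match describes letters only and is not a measured binding site. Only exact matches were counted, so copies with a changed base were missed. The HERPUD1 stretch, for example, also holds an ERSE copy that differs in its last base.

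**Figure D1:**
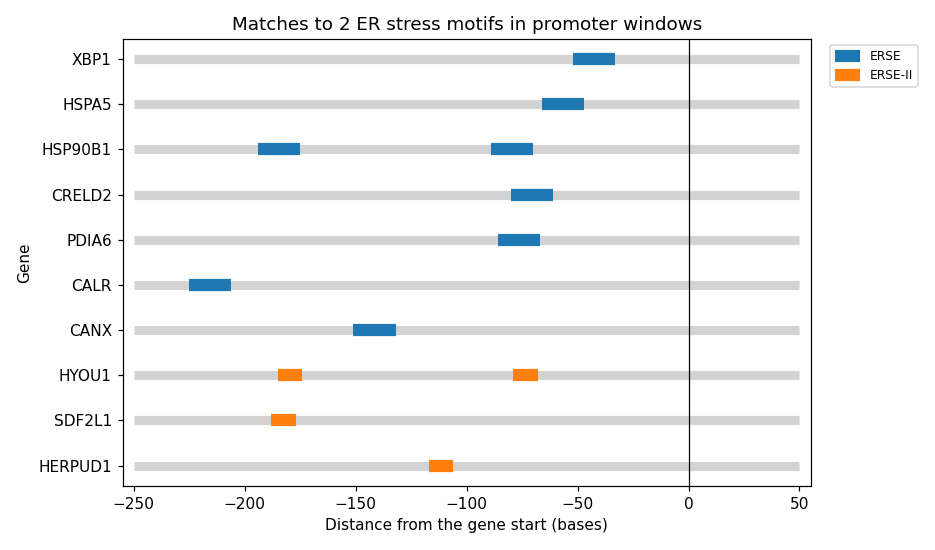
Positions of ERSE (blue) and ERSE-II (orange) matches in the promoter windows of the 10 genes that held either, with distance from the gene start in bases on the horizontal axis and the window as a grey bar. HSP90B1 and HYOU1 held 2 matches each, and every match lay upstream of the start.

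The values were FPKM (sequenced fragments divided by transcript length and by the size of the library), and changes were computed as differences of log2(FPKM + 1) with limma, so that those of low genes are understated. A gene was called where its two-sided p, adjusted by the Benjamini-Hochberg method over the 15372 genes tested, was under 0.05. Each comparison set 2 libraries against 2, the least that allows a spread, and the control hypoxia libraries entered 3 of the 4 comparisons. Depth was between 56.1% and 95.6% of the deepest library (replicate 1 of control hypoxia), lowest in replicate 2 of normoxia and of eKD1. LOXHD1, the gene whose enhancer was targeted, stood at 93.0 and 91.1 FPKM in control hypoxia, 17.3 and 15.0 in eKD1 and 11.7 and 11.8 in eKD2. All 7 Ewing sarcoma markers were above 10 FPKM in every library. Of the leukocyte markers CD3E was at 0 throughout, while PTPRC reached 23.8 FPKM and the summed markers were at 23.6 and 24.6 FPKM in normoxia, 5.51 and 5.78 in control hypoxia, 11.3 and 11.7 in eKD1 and 14.8 and 15.1 in eKD2; their part in the results was not tested. Epithelial markers summed to 3.72 to 9.67 FPKM and endothelial markers to at most 0.845 FPKM. In bulk RNA, fewer expressing cells and less RNA per cell cannot be told apart.

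In hypoxia, the chaperones HSPA5, HSP90B1 and CALR and the isomerases P4HB, PDIA3 and PDIA4 of control cells rose, from 1.37-fold for HSP90B1 to 1.92-fold for P4HB, while EDEM3 fell to 32.0% of its normoxic level. Of the 36 genes, 12 were called higher and 4 lower, where 16.2% of all genes tested were called higher and 16.0% lower. The median log2 change of the list was 0.20, against 0.01 for all genes. Both hypoxia libraries lay apart from both normoxia libraries in 29 of the 36 genes, against 70.4% of all genes tested. When the summed FPKM of all libraries was set equal, which moved the median of all genes from 0.01 to -0.19, 8 genes were called higher and 10 lower, and the median of the list was -0.04. With these totals 10.2% of all genes tested were called higher and 25.7% lower. HSPA5, HSP90B1, CRELD2, PDIA3, PDIA4, P4HB, CALR and HERPUD1 were called higher under every scaling run. XBP1, CANX, EDEM2 and OS9 were called higher as deposited and with median-of-ratios rescaling but not with equal totals.

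**Figure D2:**
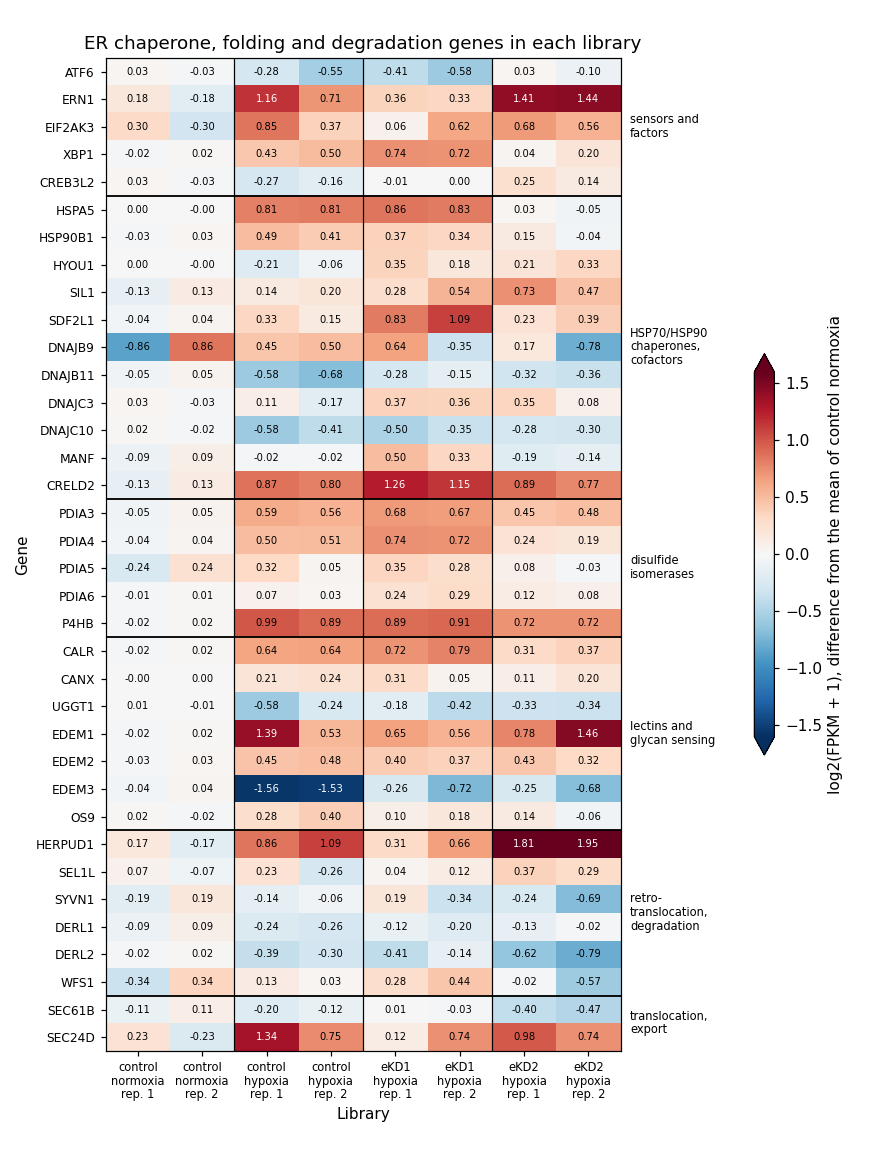
Level of each of the 36 genes in the 8 libraries, as the difference of log2(FPKM + 1) from the mean of control normoxia (red higher, blue lower, values printed in the cells), with genes grouped by role. HSPA5 was near 0.8 in control hypoxia and eKD1 and near 0 in eKD2, HERPUD1 was highest in eKD2 at 1.81 and 1.95, and DNAJB9 differed between its duplicates.

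HSPA5 encodes BiP, the main HSP70 chaperone of the ER lumen, which also holds the sensors inactive when bound to them (chromosome 9, 127997132 to 128003661, minus strand, GRCh37). It stood at 157 and 156 FPKM in control normoxia and at 276 FPKM in both control hypoxia libraries. The groups were far apart relative to their duplicates, with a log2 change of 0.81 (SE 0.0414 and limma adjusted p = 0.00665). HSP90B1, the ER member of the HSP90 family known as GRP94, stood at 630 and 653 FPKM in normoxia and at 902 and 853 in hypoxia, without overlap. Its log2 change was 0.45 (SE 0.0476 and limma adjusted p = 0.0110). CRELD2, a secreted protein of the ER stress response, stood at 42.8 and 51.7 FPKM in normoxia and at 86.9 and 82.7 in hypoxia. Its change of 0.84 (SE 0.114 and limma adjusted p = 0.0166) was close to that of HSPA5.

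Among the disulfide isomerases, which form and rearrange cysteine bonds, 3 of 5 were called higher and none lower. P4HB, the classical isomerase PDI, is also a subunit of the collagen prolyl hydroxylases. It stood at 701 and 719 FPKM in normoxia and at 1410 and 1320 in hypoxia, a log2 change of 0.94 (SE 0.0483 and limma adjusted p = 0.00665). PDIA3, also called ERp57, which works with the lectin chaperones, stood at 258 and 278 FPKM in normoxia and at 403 and 394 in hypoxia. This was a log2 change of 0.57 (SE 0.0549 and limma adjusted p = 0.00976). PDIA4, an isomerase that associates with BiP, stood at 141 and 150 FPKM in normoxia and at 205 and 206 in hypoxia, a change of 0.50 (SE 0.0538 and limma adjusted p = 0.0112). In all 3 the groups did not overlap. PDIA6 stood at 262 and 267 FPKM in normoxia against 277 and 270 in hypoxia, also without overlap. It was not called (log2 change 0.05, limma adjusted p = 0.413), and it was called lower at -0.19 with equal totals.

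The lectin chaperones calreticulin and calnexin, which hold newly glycosylated proteins until they fold, were called higher by different amounts. CALR stood at 825 and 843 FPKM in normoxia and at 1297 and 1301 in hypoxia, a log2 change of 0.64 (SE 0.0333 and limma adjusted p = 0.00665). CANX, its membrane-bound relative, changed by 0.22 (SE 0.0338 and limma adjusted p = 0.0199), and by -0.02 with equal totals. The 3 EDEM genes, whose products trim mannose and mark glycoproteins for degradation, did not move together. EDEM3 stood at 28.5 and 30.2 FPKM in normoxia and at 9.30 and 9.51 in hypoxia, a log2 change of -1.54 (SE 0.0923 and limma adjusted p = 0.00707). EDEM2 was called higher at 0.46 (SE 0.10 and limma adjusted p = 0.0393). EDEM1 stood at 4.10 and 4.23 FPKM in normoxia and at 12.5 and 6.47 in hypoxia, and with duplicates so far apart it was not called (log2 change 0.96, limma adjusted p = 0.104). The ratio of EDEM3 to EDEM2 was 2.81 and 2.84 in normoxia and 0.637 and 0.641 in hypoxia. OS9, which recognises the trimmed glycans, was called higher at 0.34 (limma adjusted p = 0.0327), though 15.9% of its exonic bases are shared with AGAP2-AS1.

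HERPUD1, a membrane protein that organises the degradation complex and is known to be induced through both the ATF6 and PERK branches, stood at 31.8 and 25.1 FPKM in normoxia and at 52.1 and 61.3 in hypoxia. Its log2 change of 0.97 (SE 0.159 and limma adjusted p = 0.0229) was the largest rise among called genes of the list. The ligase SYVN1 (HRD1), its partner SEL1L and DERL1 were not called, with changes between -0.25 and -0.02, and DERL2, a channel component, was called lower at -0.34 (limma adjusted p = 0.0412). Of the DnaJ cochaperones, which deliver clients to BiP, 2 of 4 were called lower. DNAJB11 stood at 117 and 126 FPKM in normoxia and at 80.9 and 75.9 in hypoxia, a log2 change of -0.63 (SE 0.0711 and limma adjusted p = 0.0121). DNAJC10, a cochaperone that also reduces disulfides, was at -0.49 (limma adjusted p = 0.0245). Thus BiP and these cochaperones moved in opposite directions. DNAJB9 stood at 3.79 and 14.8 FPKM in the normoxia libraries, the widest spread between duplicates in the list (3.90-fold), and at 10.9 and 11.3 in hypoxia, so that no direction is given for it. SDF2L1 stood at 9.59 and 10.2 FPKM in normoxia and at 12.7 and 11.1 in hypoxia, and its change of 0.24 was not called (limma adjusted p = 0.221). The nucleotide exchange factors HYOU1 and SIL1, the cochaperone DNAJC3, MANF, PDIA5, the glucosyltransferase UGGT1 that tags misfolded glycoproteins, WFS1, the membrane-bound factor CREB3L2 and SEC61B were not called either, with changes between -0.41 and 0.18.

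Of the sensors and factors, XBP1 alone was called. It stood at 16.5 and 16.9 FPKM in normoxia and at 23.0 and 24.1 in hypoxia, a log2 change of 0.47 (SE 0.0862 and limma adjusted p = 0.0287). ERN1, which encodes IRE1, stood at 2.31 and 1.57 FPKM in normoxia and at 5.5 and 3.76 in hypoxia. The groups did not overlap but the change of 0.93 (SE 0.253) missed the threshold at limma adjusted p = 0.0626. ATF6 was at 17.7 and 17.0 FPKM in normoxia and at 14.1 and 11.5 in hypoxia (log2 change -0.41, SE 0.135, limma adjusted p = 0.0913). EIF2AK3, which encodes PERK, was at 5.77 and 3.46 FPKM in normoxia and at 8.91 and 6.07 in hypoxia (log2 change 0.61, limma adjusted p = 0.207). All 3 of these sensors were expressed far below HSPA5 and HSP90B1. SEC24D, a cargo adaptor of the vesicles leaving the ER, stood at 21.5 and 15.3 FPKM in normoxia and at 47.4 and 31.3 in hypoxia, and the largest rise of the list (1.04, SE 0.279) was not called (limma adjusted p = 0.0605). The fit that shared the spread of all 8 libraries also called ERN1, ATF6 and SEC24D, with no other difference than losing DERL2 and CANX, and gave 17 calls in place of 16. Over all 15372 genes tested it gave 5824 calls in place of 4946.

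**Figure D3:**
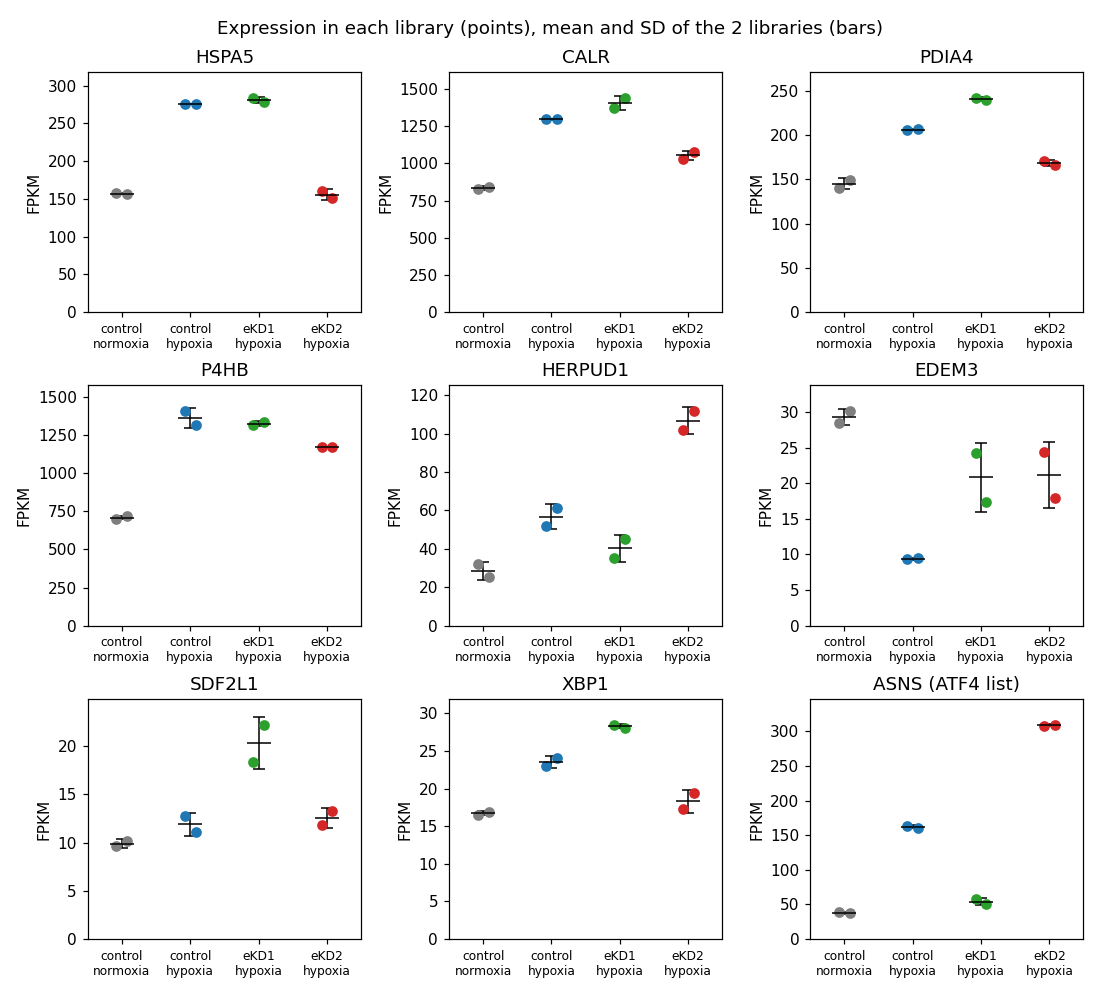
Expression in FPKM of 8 genes of the list and of ASNS, an ATF4 target, in each library (points) with the mean and SD of 2 libraries (bars). In eKD2, as deposited, HSPA5 at 160 and 151 FPKM was at its normoxic level while HERPUD1 at 102 and 112 and ASNS at 308 and 310 were above every other library.

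In eKD1 cells, no gene of the list was called against control cells in hypoxia, where 0.0130% of all genes tested were called higher and 0.0520% lower. By the p before adjustment, with the same threshold, 11 of the 36 genes were higher and 1 was lower, against 11.7% and 10.0% of all genes. The median log2 change was 0.10, and 24 of the 36 genes had no overlap between the groups, against 53.6% of all genes. HSPA5 stood at 284 and 278 FPKM, close to the 276 FPKM of control hypoxia (log2 change 0.03, SE 0.0402, limma adjusted p = 0.723). SDF2L1, a cofactor that keeps DnaJ proteins from aggregating, stood at 18.4 and 22.2 FPKM in eKD1 against 12.7 and 11.1 in control hypoxia. Its log2 change of 0.72 (SE 0.147 and limma adjusted p = 0.133) was not called. MANF, a secreted cofactor of BiP, changed by 0.43 (SE 0.0761 and limma adjusted p = 0.120), and DNAJB11 by 0.42 (SE 0.0758 and limma adjusted p = 0.122). CRELD2 changed by 0.37 (limma adjusted p = 0.124) and PDIA4 by 0.22 (limma adjusted p = 0.122). EDEM3 stood at 24.3 and 17.4 FPKM against 9.30 and 9.51, a log2 change of 1.05 (SE 0.191 and limma adjusted p = 0.122). HERPUD1 was the gene lower at an unadjusted p under 0.05, at 35.3 and 45.3 FPKM against 52.1 and 61.3 (log2 change -0.49, SE 0.163, limma adjusted p = 0.218). The shared fit called SDF2L1, DNAJB11, MANF and EDEM3 higher, but none of them was called in that fit once any library of the comparison was left out. With all libraries it called 761 of the 15372 genes tested, in place of 10.

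In eKD2 cells, BiP, PDIA4 and calreticulin fell and HERPUD1 rose against control cells in hypoxia. These were the 4 calls of the list, 1 higher and 3 lower, where 5.80% of all genes were called higher and 3.81% lower. The median log2 change was -0.04 against 0.05 for all genes, and 28 of the 36 genes had no overlap between the groups, against 62.1% of all genes. The split of the calls depended on scaling. With median-of-ratios rescaling 1 gene was called higher and 6 lower, HSP90B1, P4HB and SEC61B in addition, where 4.82% of all genes were called higher and 5.59% lower. With equal totals 3 were called higher, HERPUD1, DNAJB11 and EDEM3, and HSPA5 alone lower, where 9.61% of all genes were called higher and 2.80% lower. HSPA5 and HERPUD1 were thus called in opposite directions under all 3 scalings. Without a variance trend none of the 4 was called (HSPA5 limma adjusted p = 0.0555, HERPUD1 0.0624), and without a filter on low values only HSPA5 was. In the shared fit, HSPA5 remained called lower when any library of the comparison was left out, whereas HERPUD1 was called in none of these 4 fits, which were added after seeing the data.

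HSPA5 stood at 160 and 151 FPKM in eKD2, below both control hypoxia libraries and, as deposited, within a few FPKM of control normoxia (99.4% of its mean). No fit compared eKD2 with normoxia. Summed FPKM was 865107 and 877580 in the normoxia libraries and 953073 and 959843 in eKD2, so this closeness depends on scaling. Against control hypoxia the log2 change of HSPA5 was -0.82 (SE 0.0503 and limma adjusted p = 0.0273). CALR stood at 1033 and 1076 FPKM, between normoxia and control hypoxia without overlap, with a log2 change of -0.30 (SE 0.0363 and limma adjusted p = 0.0345). PDIA4 stood at 171 and 166 FPKM, also in between, with a change of -0.29 (SE 0.0433 and limma adjusted p = 0.0426). HERPUD1 moved away from normoxia, at 102 and 112 FPKM, 375% of the normoxic mean (log2 change against control hypoxia 0.90, SE 0.110, limma adjusted p = 0.0345). Several others had values below control hypoxia without passing the threshold. HSP90B1 stood at 711 and 624 FPKM (log2 change -0.40, SE 0.0812, limma adjusted p = 0.0648). P4HB stood at 1173 FPKM in both libraries (log2 change -0.22, SE 0.0453, limma adjusted p = 0.0665). XBP1 stood at 17.2 and 19.4 FPKM (log2 change -0.35, SE 0.0999, limma adjusted p = 0.111). Each of the 3 members called lower was an abundant folding factor. None of the 6 members of retrotranslocation and degradation was called lower, where 3.81% of all genes were. Of these 6, 3 had positive and 3 negative changes. The negative ones were SYVN1 at -0.37, DERL2 at -0.36 and WFS1 at -0.37, so the calls do not separate folding from degradation.

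EDEM3 stood at 24.5 and 17.9 FPKM in eKD2, above both control hypoxia libraries and below both normoxia libraries. Its change of 1.08 (SE 0.180) fell just short of the threshold and was not called (limma adjusted p = 0.050). HYOU1, a large HSP70-like protein that exchanges the nucleotide of BiP, was at 55.3 and 60.3 FPKM against 41.1 and 45.7 (log2 change 0.41, SE 0.0904, limma adjusted p = 0.0733). It is another ERSE-II gene, and the third, SDF2L1, stood at 11.8 and 13.3 FPKM in eKD2, overlapping control hypoxia (log2 change 0.07, limma adjusted p = 0.743). DNAJB11 was at 97.2 and 94.6 FPKM against 80.9 and 75.9 (log2 change 0.29, SE 0.0602, limma adjusted p = 0.0671). ERN1 was at 6.77 and 6.93 FPKM against 5.5 and 3.76 (log2 change 0.50, limma adjusted p = 0.191), and ATF6 at 17.6 and 16.1 against 14.1 and 11.5 (log2 change 0.38, limma adjusted p = 0.165). EIF2AK3 overlapped control hypoxia, at 7.80 and 7.10 FPKM (log2 change 0.01, limma adjusted p = 0.979). DNAJB9 was at 8.80 and 4.08 FPKM, again with duplicates far apart (log2 change -0.77, limma adjusted p = 0.236).

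The knockdown pools were compared directly, in a test that does not use the control libraries. Of the 36 genes, HSPA5 alone was called, lower in eKD2 than in eKD1 by 0.85 on the log2 scale (SE 0.0543 and limma adjusted p = 0.0461), where 0.286% of all genes were called higher and 0.117% lower. With equal totals the change of HSPA5 was -0.81 and missed the threshold (limma adjusted p = 0.0551), as it did without a filter on low values (0.0527) and without a variance trend (0.115). In the shared fit HSPA5, PDIA4 and CALR were called lower when any library of this comparison was left out. Before adjustment of p, 4 genes of the list passed 0.05 as higher in eKD2 and 14 as lower, against 13.8% and 9.73% of all genes. All 5 disulfide isomerases were among the 14, with log2 changes from -0.51 to -0.16. The median of the list was -0.14 against 0.05 for all genes, and 25 of the 36 genes had no overlap, against 55.2% of all genes.

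HERPUD1 had the largest difference, 35.3 and 45.3 FPKM in eKD1 against 102 and 112 in eKD2, at 1.39 on the log2 scale (SE 0.148 and limma adjusted p = 0.0766). The ratio of HERPUD1 to HSPA5 was 0.202 and 0.161 in normoxia, 0.189 and 0.222 in control hypoxia, 0.124 and 0.163 in eKD1 and 0.634 and 0.740 in eKD2. Both eKD2 libraries lay above all 6 others, and the ranges of control hypoxia and eKD1 each overlapped that of normoxia. Other genes with a low p were XBP1 at -0.60 (SE 0.0992 and limma adjusted p = 0.0940) and ERN1 at 1.08 (SE 0.134 and limma adjusted p = 0.0784). PDIA4 was at -0.51 (SE 0.0463 and limma adjusted p = 0.0656), CALR at -0.42 (SE 0.0481 and limma adjusted p = 0.0779) and MANF at -0.58 (SE 0.0804 and limma adjusted p = 0.0843). SEC61B, the small subunit of the translocation channel, was at -0.42 (SE 0.0507 and limma adjusted p = 0.0779), at 183 and 175 FPKM in eKD2 against 243 and 237 in eKD1. SDF2L1 was at -0.65 (SE 0.145 and limma adjusted p = 0.125), and CRELD2 at -0.37 (limma adjusted p = 0.117). None of these was called by this fit, but in the shared fit the calls were 9 lower, HSPA5, HSP90B1, XBP1, SDF2L1, MANF, PDIA3, PDIA4, CALR and SEC61B, and 2 higher, HERPUD1 and ERN1. The shared fit called 1391 of the 15372 genes tested in this comparison, in place of 62. EDEM3 did not separate the pools, with values of 24.3 and 17.4 FPKM in eKD1 and 24.5 and 17.9 in eKD2 (log2 change 0.03, SE 0.245).

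**Figure D4:**
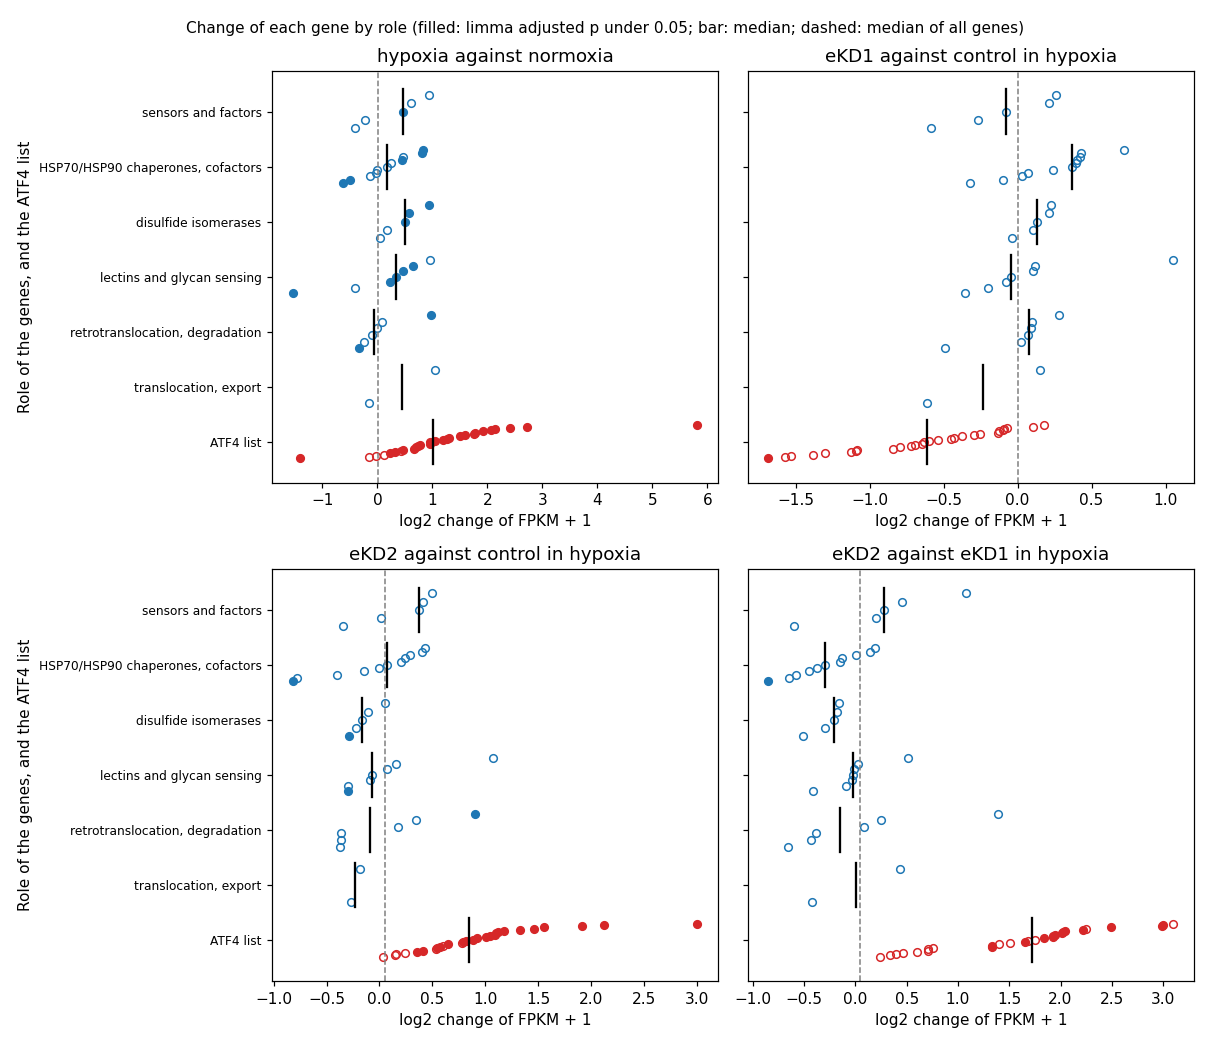
Log2 change of each gene by role (blue) and of the 28 ATF4 list genes (red) in the 4 comparisons, each panel with its own horizontal scale, where filled points are genes called by limma, black bars are medians and the dashed line is the median of all genes tested. Between the pools the median of the ATF4 list was 1.72 with all 28 genes above 0, while the median of the 36 ER genes was -0.14.

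The ATF4 list, 28 genes that include ATF4 itself beside its targets and were all tested, took another course. In hypoxia, 22 were called higher and 1 lower, with a median log2 change of 1.01. The largest rises were those of DDIT4, an inhibitor of mTORC1, at 5.82 and PCK2, a mitochondrial enzyme, at 2.72 (limma adjusted p = 0.00140 and 0.00809). SLC7A11, the cystine transporter, was the single called fall at -1.41 (limma adjusted p = 0.00809). Whether the rises in low oxygen came through ATF4 was not tested. ASNS, asparagine synthetase, stood at 38.6 and 37.1 FPKM in normoxia and at 164 and 161 in control hypoxia (log2 change 2.07, SE 0.0573, limma adjusted p = 0.00344). In eKD1 it stood at 57.7 and 50.6 FPKM, and in eKD2 at 308 and 310. In eKD1, ASNS was thus below both control hypoxia libraries but above both normoxia libraries. Its fall against control hypoxia was not called in the fit of 2 against 2 libraries. HSPA5 held its hypoxic level in eKD1 and, as deposited, was at its normoxic level in eKD2, where ASNS was highest. The ratio of ASNS to HSPA5 was 0.246 and 0.237 in normoxia, 0.594 and 0.582 in control hypoxia, 0.203 and 0.182 in eKD1 and 1.92 and 2.05 in eKD2.

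In eKD1 the median of the ATF4 list was -0.62 and 1 gene was called, ATF5 at -1.68 (SE 0.0633 and limma adjusted p = 0.0355). In eKD2 the median was 0.85 with 21 called higher and none lower, led by SLC7A11 at 3.0 (limma adjusted p = 0.00989) and ATF3, a stress-induced factor, at 2.12 (limma adjusted p = 0.0251). Between the pools, 14 of the 28 were called higher in eKD2 and none lower, with a median of 1.72. CHAC1, a glutathione-degrading enzyme, was at 80.9 and 87.2 FPKM in eKD2 against 10.2 and 9.04 in eKD1, and its difference of 3.0 (SE 0.101 and limma adjusted p = 0.0205) was positive while that of HSPA5 was negative. DDIT3, the factor CHOP, differed by 1.92 (SE 0.0846 and limma adjusted p = 0.0273) and TRIB3, a pseudokinase, by 1.95 (SE 0.124 and limma adjusted p = 0.0461). The mRNA of ATF4 itself, which is on the list and is controlled mainly at translation, differed by 0.34 (SE 0.0567 and limma adjusted p = 0.0973) and was not called. Between the pools the called gene of the ER list, HSPA5, therefore had the opposite sign to the called genes of the ATF4 list. No gene of the ER list was called higher by this fit. That contrast rested on HSPA5 alone, which missed the threshold with equal totals (limma adjusted p = 0.0551) and in other settings named above. HERPUD1 at 1.39 and ERN1 at 1.08 had the sign of the ATF4 list. Both were called higher in the shared fit (limma adjusted p = 0.00913 and 0.0314), where 9 ER genes were called lower. That fit called 1391 of the 15372 genes tested.

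Levels relative to control normoxia were also summarised for each library. The median over the 36 ER genes was 0.25 and 0.17 in control hypoxia, 0.31 and 0.33 in eKD1 and 0.16 and 0.11 in eKD2, a narrow band with eKD1 highest. The median over the ATF4 list was 0.96 and 1.06 in control hypoxia, 0.32 and 0.35 in eKD1 and 1.89 and 1.76 in eKD2. In both lists normoxia was lowest as deposited. With equal totals the median change of the ER list in hypoxia against normoxia was -0.04, so its place there depended on scaling. Among the hypoxic groups eKD1 lay above eKD2 on the ER list and below it on the ATF4 list. The place of eKD2 against control hypoxia on the ER list depended on scaling, since the median change between them was -0.04 as deposited, 0.07 with equal totals and 0.0032 without replicate 1 of control hypoxia. On the ATF4 list it was 0.85 as deposited and 0.95 with equal totals. None of these orders was tested. In the fits of 2 against 2 libraries, leaving out any library left 1 residual degree of freedom, and 0 of all genes were called in every such fit, so that stability was read from the shared fit.

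Grouped by promoter motif, the 7 ERSE genes all had positive changes in hypoxia, from 0.05 to 0.84, and 6 of them were called higher. The 23 genes without an exact match to either motif had 4 called higher and 4 lower, with a median of -0.02. Of all genes tested, 16.2% were called higher and 16.0% lower. The ERSE genes HSPA5, HSP90B1, CALR, CANX and PDIA6 had means above 100 FPKM in control normoxia, where a call is easier to reach. In eKD2 against eKD1, all 7 ERSE genes had negative changes, from -0.85 to -0.02, with HSPA5 called. The 3 ERSE-II genes differed among themselves in that comparison, with HERPUD1 at 1.39, SDF2L1 at -0.65 and HYOU1 overlapping between the pools. These groups were formed after the expression values had been seen and were not tested. With equal totals CANX and PDIA6 had negative changes in hypoxia, at -0.02 and -0.19. Between the pools CANX was then at 0.01, and HSPA5 was not called (limma adjusted p = 0.0551).

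Levels differed widely among the 36 genes, and since FPKM is scaled to length they may be set side by side. In control normoxia 10 genes had a mean above 100 FPKM and 8 a mean below 10 FPKM. Of these 10 abundant genes, 7 were called higher in hypoxia and 1 lower, DNAJB11, and of the other 26 genes 5 were called higher and 3 lower. All 3 genes called lower in eKD2 were among the 10. A called change is easier to reach at high levels, where the spread of duplicates is small, so these counts do not compare abundance with response. Duplicates differed by more than 1.5-fold in some group for 5 genes, EIF2AK3, DNAJB9, EDEM1, WFS1 and SEC24D. Over the 4 comparisons 16 genes were called at least in 1 and 20 in none.

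Other ER genes were taken from lists outside the 36, and their counts are to be read against the 16.2% of all genes called higher in hypoxia and the 16.0% called lower. Of 22 tested folding enzymes, 5 were called higher and 1 lower in hypoxia. TXNDC5, an isomerase with thioredoxin domains, was highest at 0.69 (SE 0.0924 and limma adjusted p = 0.0160), and TMX3, a membrane-bound isomerase, was called lower at -0.47 (limma adjusted p = 0.0209). With equal totals these were 0.45 and -0.70, both called. ERO1A, the oxidase that supplies P4HB, rose by 0.49 on the log2 scale (SE 0.102 and limma adjusted p = 0.0363), but its change was 0.26 and not called with equal totals (limma adjusted p = 0.113), nor was it called in the shared fit (0.115). Of 22 further degradation genes, 3 were called higher and 7 lower in hypoxia, with SELENOS, a partner of the derlins, at -0.70 (limma adjusted p = 0.0159) and NGLY1, which removes glycans from exported proteins, at 0.73 (limma adjusted p = 0.0270), or 0.50 and not called with equal totals (0.0564). Of 25 translocon and glycosylation genes 6 were called higher and 5 lower, of 20 tested vesicle export genes 1 and 3, and of 18 other sensor pathway genes 5 and 5.

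In eKD2 against control the same lists had 2 higher and 1 lower (folding), 1 and 1 (degradation), 0 and 2 (translocon and glycosylation), 2 and 0 (export) and 1 and 1 (sensor pathways), where 5.80% of all genes were called higher and 3.81% lower. The lower translocon genes were SSR2 at -0.52 (SE 0.0446 and limma adjusted p = 0.0282) and SSR4 at -0.41 (SE 0.0432 and limma adjusted p = 0.0306), subunits of the same translocon-associated complex. TFG, which organises ER exit sites, fell by 0.75 on the log2 scale in hypoxia (limma adjusted p = 0.00799) and was called higher in eKD2 at 0.76 (limma adjusted p = 0.0273), comparisons that share the control hypoxia libraries. VCP, the ATPase that pulls degradation substrates out of the membrane, was the degradation gene called lower in eKD2 against control, at -0.54 (SE 0.0645 and limma adjusted p = 0.0343). It was at 162 and 178 FPKM in eKD2 against 338 and 341 in eKD1. Its difference of -0.99 (SE 0.0637 and limma adjusted p = 0.0461) was the single call among these lists between the pools, and it was missed with equal totals (-0.96, limma adjusted p = 0.0549).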

How the data were processed

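RNA was sequenced by the authors from poly-A selected, unstranded libraries of SK-N-MC cells with single-end reads, aligned with STAR to GRCh37 and quantified with Cufflinks and Cuffnorm. The authors deposited FPKM values in a table with 1 column per library, and how Cuffnorm scaled the libraries to each other is not given in the sources used here. The authors compared read counts with DESeq2. These counts were not used here, so FPKM was analysed as log2(FPKM + 1) in limma 3.58.1 (R 4.3.3; lmFit, eBayes with a variance trend). A gene was tested if 2 or more of the 8 libraries reached 1 FPKM. Each comparison was fitted on its own 4 libraries, with two-sided p-values and the Benjamini-Hochberg adjustment across every tested gene. The fit was tested on simulated data.

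Groups and replicate numbers came from the sample titles. The study calls the 2 libraries of a group biological duplicates, and p-values measure the spread between them. Absolute depth is unknown, since FPKM holds no read totals, and relative depth was read from the steps between low values. No interval for a single value was computed for this reason. Same-numbered libraries did not deviate together (correlation of their deviations -0.05 to 0.04), so the replicate number served only as an alternative.

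The members and the lists beside them were chosen with earlier results of these data known. Values in every library were given for HSPA5, HSP90B1, XBP1, ATF6, ERN1, EIF2AK3, HERPUD1, DNAJB9, SDF2L1 and each member called in any comparison with a log2 change of at least 0.5. From the other lists ASNS, TRIB3, DDIT3, ATF4, CHAC1, ERO1A and up to 2 called rises and 2 called falls per list were named. Further members with values, such as MANF, HYOU1, SEC24D and SEC61B, and ASNS for the ratio to HSPA5, were picked after their values were seen. Gene positions and exon overlaps came from the GENCODE annotation on GRCh37, and promoter sequences from RefSeq on GRCh38.p14. Reads from bases shared by genes on opposite strands cannot be told apart without strand. Where both genes lie on the same strand, as for OS9 with AGAP2-AS1 and PDIA5 with SEC22A, strand would not separate them either. Of genes above 10 FPKM, AGAP2-AS1 overlaps 15.9% of the exonic bases of OS9, SEC22A 12.0% of those of PDIA5 and MRPL49 6.48% of those of SYVN1, and the others less. Among the others, FAU overlaps 2.37% of the exonic bases of SYVN1 and reached 1050 FPKM. MATR3 overlaps 2.64% of those of SIL1 and reached 604 FPKM. The part of such reads in the values of SYVN1 and SIL1 was not tested.

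Settings were changed singly. The pseudocount was lowered to 0.1, the filter was removed or set to a mean of 5 FPKM, libraries were rescaled by median of ratios or to equal totals, all 8 libraries were fitted together, the replicate number was added as a block, the variance trend was dropped, and each library was omitted in turn. The shared fit with a library omitted was added after seeing the data.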

Additional observations from a re-analysis of the deposited data

Results flagged for a closer look

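Genes were picked out where the effects of the knockdown pools differed in the direct test of eKD2 against eKD1 (limma, adjusted over all genes tested). HSPA5 was lower in eKD2, with a log2 difference of -0.85. VCP, the ATPase that extracts degradation substrates, was lower as well, at -0.99. On the ATF4 list ASNS was higher in eKD2 at 2.49, TRIB3 at 1.95, DDIT3 at 1.92, CHAC1 at 3.0 and PCK2 at 2.99. In all 7 genes both libraries of one pool lay on the same side of both libraries of the other. Their choice by this same test favours that, and 55.2% of all genes tested had no overlap. With equal totals HSPA5 and VCP missed the threshold (limma adjusted p = 0.0551 and 0.0549). Guide and pool cannot be told apart, and no cause was tested.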

How the results depend on the processing

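The pseudocount changed no call among 132 named gene results, of which 72 were called. Of these calls, 41 remained without a filter on low values, 70 with median-of-ratios rescaling, 54 with equal totals, 68 in the shared fit (28 more were gained there), 29 with the replicate block and 40 without a variance trend. The ER genes called in hypoxia numbered 16, against 10 without a filter. In eKD2 they numbered 4, against 1 without a filter, 7 with median-of-ratios rescaling, 10 in the shared fit and 0 without a variance trend. In eKD1 they numbered 0, against 4 in the shared fit. Between the pools they numbered 1, against 0 without a filter, with equal totals or without a trend, 2 with a filter at a mean of 5 FPKM and 11 in the shared fit. The ATF4 list had 1 call in eKD1, against 2 without a filter or with equal totals, 16 in the shared fit and 0 without a trend. It had 21 in eKD2, against 2 without a trend, and 14 between the pools, against 26 in the shared fit and 0 without a trend. Of the 15372 genes tested, the shared fit called 5824 in hypoxia, 761 in eKD1, 2601 in eKD2 and 1391 between the pools. The fits of 2 against 2 libraries called 4946, 10, 1477 and 62. Leaving out a library gave 0 to 0 calls for both lists in every comparison of 2 against 2, where 1 residual degree of freedom was left. In shared fits without a library, chosen after seeing the data, 13 to 15 ER genes were called in hypoxia, 0 to 0 in eKD1, 1 to 4 in eKD2 and 3 to 4 between the pools. The ATF4 list had 4 to 6 in eKD1, 15 to 18 in eKD2 and 18 to 22 between the pools. The adjusted p of HSPA5 in eKD2 ran from 0.00117 in the shared fit to 0.205 without replicate 1 of control hypoxia, and between the pools from 0.000853 to 0.314.

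Same-numbered libraries were not paired (correlations from -0.05 to 0.04). With the replicate block, 10 ER genes were called in hypoxia and 0 in eKD2 and between the pools, while the ATF4 list had 0 calls in eKD1, in eKD2 and between the pools; the block left 1 residual degree of freedom.

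Signs turned in uncalled or scaling-dependent values. With equal totals CANX was at -0.018 and PDIA6 at -0.19 in hypoxia. With median-of-ratios rescaling EIF2AK3 was at -0.052 in eKD2, and EDEM3 at -0.022 between the pools. The other turns came from leaving out a library. In hypoxia DNAJB9 then ran from -0.39 to 1.33. In eKD1, ATF6 ran from -0.21 to 0.056, EIF2AK3 from -0.55 to 0.0098, DNAJB9 from -0.82 to 0.17 and ERO1A from -0.048 to 0.33. In eKD2, EIF2AK3 ran from -0.23 to 0.26 and SDF2L1 from -0.022 to 0.16. Between the pools, DNAJB9 ran from -0.95 to 0.043, ERO1A from -0.10 to 0.46 and EDEM3 from -0.20 to 0.26. The cause of these changes was not tested. FPKM without read totals gives no counting error, which limits the low genes ERN1, EIF2AK3, EDEM1 and DNAJB9 most.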

Other observations

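Outside the 36 genes, the further ER lists held called genes that the report did not name. In hypoxia, SUMF2, a paralogue of the formylglycine-generating enzyme, was at 0.49 (limma adjusted p = 0.0215), and RNF5, a ubiquitin ligase of the ER membrane, was at 0.59 (limma adjusted p = 0.0231). FOXRED2, a flavoprotein of ER-associated degradation, was called lower at -0.70 (limma adjusted p = 0.0115). SEC61G, the gamma subunit of the translocation channel, was called higher at 1.05 (limma adjusted p = 0.00622) and OSTC, a subunit of oligosaccharyltransferase, at 0.43 (limma adjusted p = 0.0153), whereas SRPRA, a subunit of the signal recognition particle receptor, was called lower at -0.83 (limma adjusted p = 0.0201) and SSR1 at -0.61 (limma adjusted p = 0.0232). Of the export genes KDELR1, the retrieval receptor for ER proteins, was called higher at 0.28 (limma adjusted p = 0.0416), and SAR1B, the GTPase that starts the vesicle coat, was called lower at -0.69 (limma adjusted p = 0.0265). Of the sensor pathway genes TXNIP was called higher at 3.56 (limma adjusted p = 0.00551) and BBC3 at 1.25 (limma adjusted p = 0.0156), with CREB3L4 at -0.86 (limma adjusted p = 0.0328) and EIF2S1 at -0.75 (limma adjusted p = 0.0201) lower. With equal totals KDELR1 was at 0.036 (limma adjusted p = 0.712), OSTC at 0.19 (0.0765), SUMF2 at 0.25 (0.0561) and RNF5 at 0.35 (0.0516), and none of these 4 was called, while KDELR1 also missed the threshold with median-of-ratios rescaling (0.0520).

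In eKD2 against control hypoxia, DNAJC1, a membrane-bound cochaperone, was called higher at 0.79 (limma adjusted p = 0.0347) and TMX3 at 0.65 (limma adjusted p = 0.0362), while PRDX4, the ER peroxiredoxin, was called lower at -0.37 (limma adjusted p = 0.0411). HERPUD2, the paralogue of HERPUD1, was called higher at 0.67 (limma adjusted p = 0.0436). SEC31A, of the outer vesicle coat, was at 0.41 (limma adjusted p = 0.0364), NFE2L2, the antioxidant factor NRF2, at 0.92 (limma adjusted p = 0.0285) and TMBIM6, an ER membrane protein, at -0.25 (limma adjusted p = 0.0437). With equal totals PRDX4 was at -0.26 (limma adjusted p = 0.0627) and TMBIM6 at -0.14 (0.0872), both not called, and with median-of-ratios rescaling HERPUD2 was at 0.60 and not called (0.0509).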
